A study of Mus musculus with 8 samples.

Results

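The baseline expression profile of the mouse distal colon was read from the 4 control arrays of a series of 8, with 1 mouse on each array and the other 4 mice carrying a stromal Ptch1 deletion. Each control was a 1 cm piece of whole colon that began 1.5 cm from the anus, so mucosa, muscle and serosa were extracted together. All 4 mice received tamoxifen into the peritoneum (5 mg per 25 g body weight) and were killed 7 days later, and none carried the Col1a2CreER driver that deletes Ptch1 in the other group. Control 1 was a female Ptch1fl/+ mouse, control 2 a male Ptch1fl/+ mouse, and controls 3 and 4 were females labelled R26-tdTomato. Their ages are not in the labels. The baseline is thus that of tamoxifen-treated animals of 2 genotypes, 2 mice each, with a single male. No test between groups was made here, and the mice were set side by side by genotype label only as a description. All 22180 genes read by transcript clusters that carry 1 gene symbol were ranked by their mean level over the 4 controls.

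The distal colon absorbs salt, water and the short-chain fatty acids made by gut bacteria, and it holds those bacteria away from its surface with a mucus layer. Its epithelium is a single sheet folded into crypts: stem cells at the base give rise to absorptive colonocytes, mucus-secreting goblet cells, hormone-secreting enteroendocrine cells and chemosensory tuft cells. Beneath it lie fibroblasts, vessels, immune cells and lymphoid follicles, then layers of smooth muscle with the enteric nerve plexuses and their pacemaker cells, and outermost a serosa covered by mesothelium and attached to mesenteric fat.

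Levels are log2 values of array signal after robust multi-array averaging (RMA), so a step of 1 is a doubling of signal. Each gene is read by its own probes, and the order of genes is therefore an order of signal and only an approximate order of RNA abundance. The levels ran from 1.55 to 13.32 with a median of 5.66. As a background level, the 95th percentile of 1373 olfactory and vomeronasal receptor genes was taken, which are made in the nose and had a median of 2.62. That background level was 4.09, and 14943 genes (67.4%) lay above it, among them 13780 of 18964 protein-coding genes (72.7%), 634 of 1926 long non-coding RNA genes (32.9%) and 150 of 483 microRNA genes (31.1%). The 4 arrays correlated with each other at 0.986 to 0.990 across transcript clusters, which are not independent replicates, and control 2 had the lowest mean correlation with the others at 0.986.

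The highest signals of the control colon came from the mucosal surface, the mitochondrial genome and the translation machinery. Of the 50 brightest genes, 14 encode secreted or surface proteins of the mucosa, 9 lie on the mitochondrial genome, 7 serve translation, 6 are other epithelial genes, 4 encode nuclear respiratory chain subunits, ATP synthase or the adenine nucleotide carrier, and 3 encode smooth muscle actin or actin regulators. Lypd8, a surface protein that binds flagella and keeps motile bacteria off the epithelium, was the brightest gene of all with 13.30, 13.29, 13.38 and 13.32 in controls 1 to 4. Sycn, known as a granule protein of the exocrine pancreas, came next with 13.32, 13.07, 13.27 and 13.22. The membrane-bound mucins Muc13 and Muc3 reached 13.05 ± 0.03 and 12.98 ± 0.03 (SD, n = 4 mice here and throughout). Muc2, the polymer that forms the mucus gel, stood at 12.90 ± 0.07, with the tissue kallikrein Klk1 at 12.96 ± 0.05 and the goblet cell proteins Clca1 and Fcgbp at 12.81 ± 0.03 and 12.57 ± 0.03. Ceacam1, an adhesion protein of the apical surface, Lgals4, a galectin of the gut epithelium, and Pigr, which carries IgA across the epithelium, were also among the 50.

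**Figure D1:**
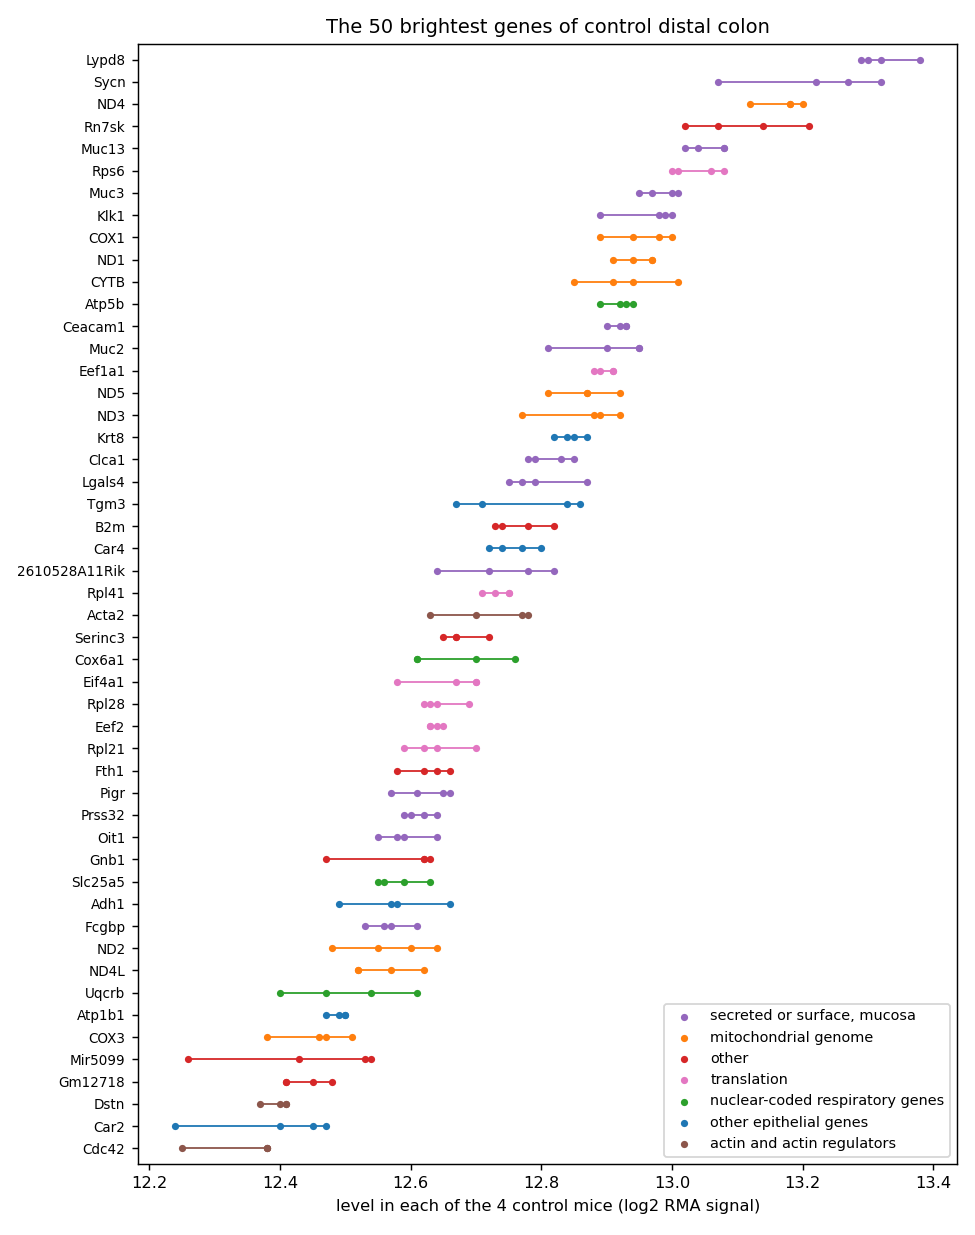
The 50 genes with the highest mean level in control distal colon, from Lypd8 at 13.32 to Cdc42 at 12.35. Each point is the log2 RMA signal in 1 of the 4 control mice and each line spans their range, coloured by the role of the gene; neighbours in the order overlap in every case.

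The mitochondrial genome was led by ND4, a subunit of complex I, at 13.17 ± 0.03, followed by COX1, ND1 and CYTB between 12.93 and 12.95, and 9 of its 10 measured genes were among the 100 brightest. The cluster named for Rps6, a protein of the small ribosomal subunit, gave the highest signal among translation genes at 13.04 ± 0.04. The elongation factors Eef1a1 and Eef2 stood at 12.90 ± 0.01 and 12.64 ± 0.01. Copies of mitochondrial and ribosomal protein genes elsewhere in the genome can share probe sequence, so these levels may include signal from copies. The keratin Krt8, the transglutaminase Tgm3, the membrane carbonic anhydrase Car4 and the sodium pump subunit Atp1b1 represented the epithelium itself, and Acta2, the smooth muscle actin, was the brightest muscle gene at 12.72 ± 0.07.

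The exact order at the top was not resolved by 4 mice. Neighbouring genes of the 50 brightest differed by a median of 0.015 and at most 0.10, their SDs had a median of 0.041, and in none of the 49 neighbouring pairs did the values of the 4 mice separate. The set itself varied less: 86 genes were among the 100 brightest in each of the 4 mice, and the 100 brightest of a single mouse shared 93 to 97 genes with the 100 brightest by mean. Taking the mean of a gene's clusters in place of the brightest cluster kept 77 of the 100.

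Promoters of the bright genes were searched for 4 short motifs of the gut on either strand, in windows of 250 bases before to 50 bases after each start site from RefSeq (GRCm38.p6), which covered 16990 genes and 70 of the 100 brightest. The TATA box, TATAAA, occurred in 16 of the 70 (22.9%), against 14.3% of all genes with a promoter and 9.81% of those above background. TTTATG, bound by CDX and posterior Hox proteins, occurred in 7 (10.0%), against 11.8% of all and 8.64% of those above background. AGATAA, bound by GATA factors, occurred in 11 (15.7%), against 11.2% and 8.29%. CAAAGTCCA, bound by HNF4, occurred in 1 (1.43%), against 0.541% and 0.559%. Muc2, Car4 and Slc26a3 were among the genes with a TATA box. These are matches of letters in a window and do not show that a factor binds there.

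Lists of known marker genes were then used to ask which compartments the array read. All 19 genes of the epithelial identity list were above background, with a median of 11.50 against 5.66 for all genes, and 13 of them exceeded 10.19, the 95th percentile over all genes. Epcam, the pan-epithelial adhesion protein, lay between 11.97 and 12.04 in the 4 mice, and the cadherin Cdh1 had 11.91, 11.91, 11.96 and 11.92. Cdx2, the transcription factor that sets intestinal identity, was the dimmest of the list at 8.07 ± 0.10, and its relative Cdx1 stood at 9.10 ± 0.14.

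Surface colonocytes had a median of 11.52 over 20 measured genes, beside epithelial identity at the top of the lists. The order of these 2 lists rested on control 2, without which surface colonocytes stood at 11.46 and epithelial identity at 11.50. Behind Lypd8, Ceacam1 and Car4 came Slc26a3, the apical exchanger that takes up chloride (12.24 ± 0.08), the carbonic anhydrase Car1 (12.23 ± 0.09), Cyp2c55, a cytochrome P450 of the colon (12.19 ± 0.06), Slc16a1, which carries butyrate (12.12 ± 0.02), and Selenbp1 (12.03 ± 0.09). Only Slc51a, a basolateral bile acid carrier of the ileum, was below background at 3.44 ± 0.19. Brush border genes had a median of 9.84, led by the microvillus cadherin Cdhr5 (11.68 ± 0.11) and the membrane linker Ezr (11.62 ± 0.05), with the phospholipase Plb1 below background at 3.62 ± 0.07.

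Goblet and deep crypt secretory genes had a median of 10.69 and all 18 were above background. Besides Klk1, Muc2, Clca1 and Fcgbp, the lectin Zg16 (12.24 ± 0.03), the disulfide isomerase Agr2 needed for mucin folding (12.08 ± 0.06), the deep crypt marker Reg4 (12.04 ± 0.09) and the trefoil peptide Tff3 (11.44 ± 0.10) were bright. Retnlb, a goblet cell protein that acts on bacteria and parasites, was the dimmest and the least even. Its levels were 4.35 and 4.32 in controls 1 and 2 and 6.16 and 6.01 in controls 3 and 4, so that the 2 floxed mice lay near background and the 2 reporter mice well above it. Both reporter mice were above both floxed mice for 11 of the 18 goblet genes, against 17.8% of all genes above background. With Retnlb included, the mean deviation of the list was -0.09 in each floxed mouse and 0.09 in each reporter mouse. Retnlb weighs on this mean, which was not taken without it. Apart from Retnlb the distances were small.

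Colonic salt and water transport was represented at high level throughout: all 25 measured genes were above background, with a median of 10.46. Slc5a8, the sodium-coupled carrier for short-chain fatty acids, read 12.25 in each of the 4 mice. Atp1b1 (12.49 ± 0.01), the cytosolic carbonic anhydrase Car2 (12.39 ± 0.10) and Hsd11b2, which shields the mineralocorticoid receptor from glucocorticoids (11.71 ± 0.10), were bright in every mouse as well. The water channel Aqp8 (11.51 ± 0.06), the colonic proton pump Atp12a (11.26 ± 0.16) and the chloride channel Cftr (10.12 ± 0.10) were also well expressed. The epithelial sodium channel, which aldosterone induces in the distal colon, varied more. Its gamma subunit Scnn1g had 7.67, 7.31, 8.83 and 8.07, its beta subunit Scnn1b 7.86, 7.58, 8.38 and 7.72, and its alpha subunit Scnn1a only 10.65, 10.75, 10.62 and 10.76. The gamma and beta subunits were highest in control 3 and lowest in control 2, as was Sgk1, a kinase induced by the same hormone (8.90, 8.44, 9.20 and 9.04). Slc9a3 of the same list did not share this order. It read 8.81, 9.80, 9.30 and 9.29, highest in control 2, and its SD of 0.404 exceeded the 0.349 of Scnn1b.

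Crypt-base genes had a median of 8.13, with 16 of 18 above background. Slc12a2, the basolateral chloride carrier of crypt cells, led at 11.60 ± 0.15, followed by the transcription factor Sox9 (10.19 ± 0.10) and Lrig1, a restraint on ErbB receptors (9.97 ± 0.10). Lgr5, the receptor that marks the stem cells, read 8.17, 8.06, 7.97 and 7.83, while a second transcript cluster with its symbol read 5.24 ± 0.18. Olfm4, a stem cell marker of the small intestine and of the human colon, was below background at 2.99 ± 0.14, as was the Wnt inhibitor Notum at 3.81 ± 0.19. Cell cycle genes had a median of 8.02, from Pcna (9.94 ± 0.16) and Mki67 (9.41 ± 0.16) down to Birc5 (5.14 ± 0.17), and all 19 measured were above background.

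Of the rarer epithelial cells, enteroendocrine cells were visible through their products. The enteroendocrine list had a median of 6.60, yet Insl5, a hormone of the distal colon, reached 10.80 ± 0.13 and the satiety peptide Pyy 10.23 ± 0.03, followed by the granins Chgb and Chga at 9.81 ± 0.06 and 9.72 ± 0.04 and proglucagon, Gcg, at 8.98 ± 0.23. Neurotensin, Nts, was below background at 3.14 ± 0.24. Tuft cell genes had a median of 5.11, below the 5.66 of all genes, and 9 of 12 were above background, against 67.4% of all genes. They were led by Hpgds, a prostaglandin synthase also found in other cells, at 6.88 ± 0.19 and the kinase Dclk1 at 6.71 ± 0.04. Pou2f3, the factor that specifies tuft cells, was below background at 3.88 ± 0.16, as were Il25 at 4.02 and Sh2d6 at 3.83.

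**Figure D2:**
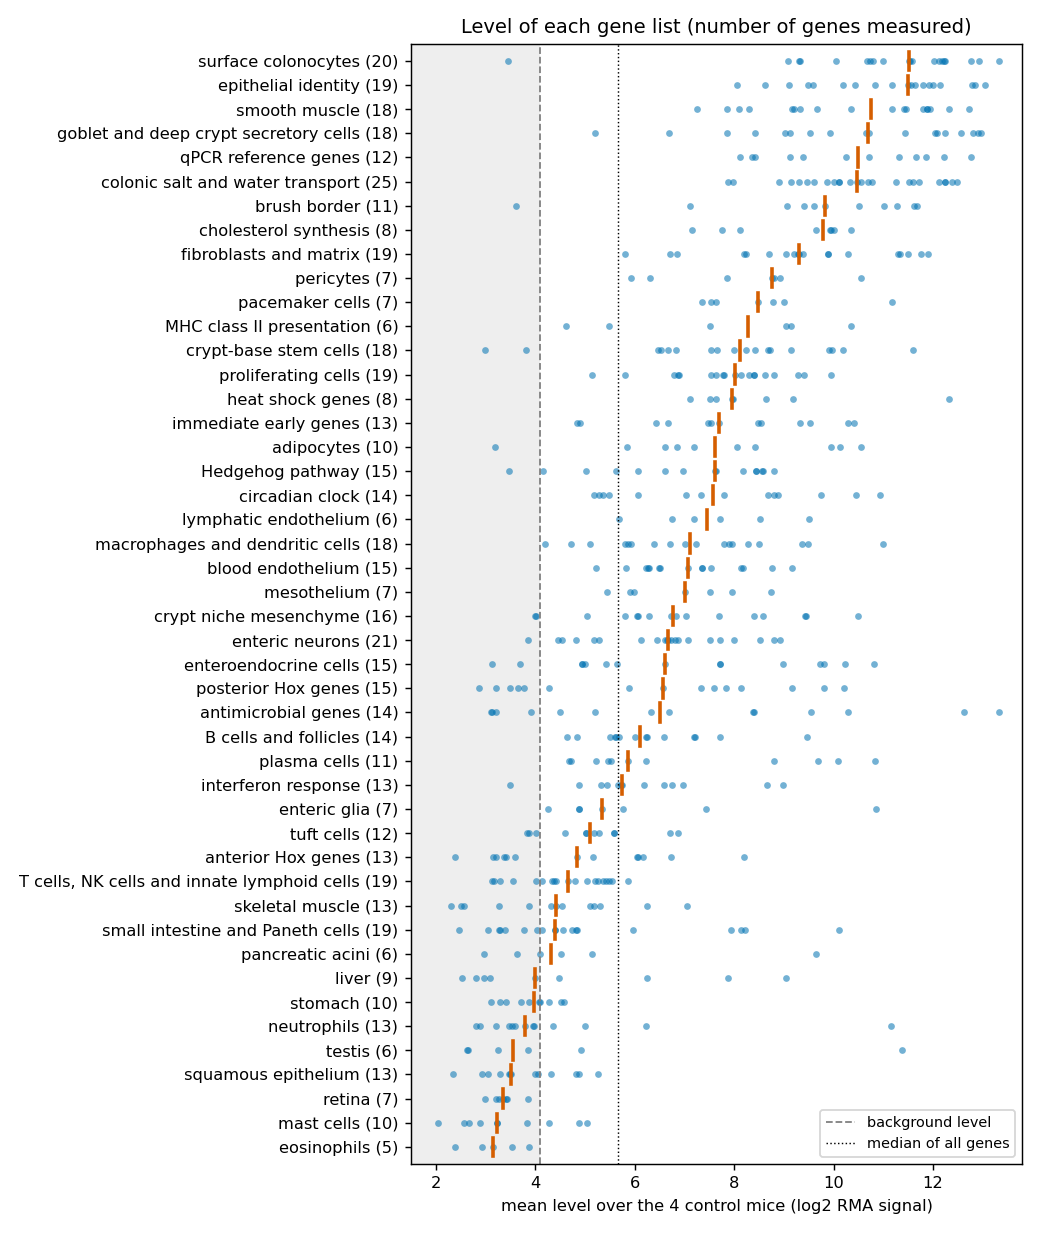
Mean level over the 4 control mice of every measured gene of each list (points, log2 RMA signal), with the median of the list as a bar. Lists are ordered by median, from surface colonocytes at 11.52 to eosinophils at 3.14; grey marks values at or below the background level of 4.09, and the dotted line is the median of all genes at 5.66.

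Smooth muscle stood beside the epithelium in signal, with a median of 10.76 over 18 genes, all above background. Acta2, the calponin Cnn1 (12.32 ± 0.07), the enteric actin Actg2 (11.94 ± 0.16), desmin, Des (11.89 ± 0.07), and the myosin heavy chain Myh11 (11.88 ± 0.16) were the brightest, and Lmod1, an actin nucleator, the dimmest (7.25 ± 0.09). The pacemaker list had a median of 8.48 and was led by Ano1, the chloride channel of the interstitial cells of Cajal, at 11.18 ± 0.01, with the receptor Kit at 8.99 ± 0.08. The CArG box, the site of serum response factor, was found in 1 of the 14 smooth muscle promoters available (7.14%), that of Myl9, against 1.67% of all genes.

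Fibroblast and matrix genes had a median of 9.30, with the proteoglycan Dcn at 11.89 ± 0.11, fibronectin, Fn1, at 11.75 ± 0.07 and the intermediate filament Vim at 11.50 ± 0.09. The mesenchyme that supplies the crypts with growth signals had a median of 6.78. F3, the coagulation receptor found on subepithelial fibroblasts, led it at 10.50 ± 0.11, with the BMP antagonist Grem1 at 9.44 ± 0.11 and the forkhead factor Foxf1 at 9.43 ± 0.22. Rspo2, a Wnt amplifier, and Ackr4, a chemokine scavenger, were just below background at 4.01 and 3.99.

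In the Hedgehog pathway, where epithelial ligand acts on stromal receptors, the ligand Ihh stood at 8.44 ± 0.07 while Shh was below background at 3.47 ± 0.16 and Dhh barely above it at 4.16 ± 0.14. The receptor Ptch1 read 8.48, 8.77, 8.61 and 8.49 in the 4 mice, so the Ptch1fl/+ mice lay at both ends of its range. The transducer Smo stood at 8.57 ± 0.12, the target and transcription factor Gli1 at 5.02 ± 0.18, and Gli2 and Gli3 at 5.63 ± 0.07 and 6.61 ± 0.07. The mean deviation of the pathway ranged over 0.035 between the mice, the narrowest of the lists with at least 5 genes above background, as members differed in both directions. Their own SDs had a median of 0.117, close to the 0.114 of all genes.

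Vessels and nerves gave intermediate levels. Blood endothelium had a median of 7.07, led by the junction proteins Cdh5 (9.16 ± 0.19) and Pecam1 (8.76 ± 0.21), and lymphatic endothelium one of 7.45, led by Lyve1 (9.51 ± 0.07), which macrophages also carry. The pericyte list stood at 8.76 with Rgs5, a brake on G protein signalling, at 10.55 ± 0.16. Enteric neurons had a median of 6.67 over 21 genes: the synaptic protein Snap25 (8.93 ± 0.17), Stmn2 (8.80 ± 0.18) and the inhibitory transmitter Vip (8.52 ± 0.16) were brightest, and Chat, which makes acetylcholine, was the single member below background at 3.85 ± 0.15. The glial list had a median of 5.34, led by the neuregulin receptor Erbb3, which epithelium also expresses, at 10.85 ± 0.17, with the filament Gfap at 5.34 ± 0.17 and S100b at 4.26 ± 0.27.

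Among immune cells, macrophages and dendritic cells had a median of 7.12 with all 18 genes above background. The lysozyme Lyz2 led with 11.01, 10.81, 11.22 and 10.96, then the phagocytic receptor Mertk (9.48 ± 0.15) and the complement chain C1qb (9.37 ± 0.11). B cell genes had a median of 6.11, led by the follicle chemokine Cxcl13. T and natural killer genes had one of 4.66, below the 5.66 of all genes. Of these 14 of 19 were above background, close to the 67.4% of all genes, and Cd3d, Foxp3, Gzma, Gzmb and Ncr1 were below it. Granulocytes were at or near background: 3.80 for neutrophils, 3.23 for mast cells and 3.14 for eosinophils, of which none of 5 genes exceeded background. The neutrophil marker Ly6g read 11.15 ± 0.17 while S100a8 and S100a9, the most abundant proteins of neutrophils, read 3.54 and 3.48. Ly6g has close relatives in the Ly6 family, and its level is uncertain as a measure of that gene.

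Immunoglobulin genes were read one by one. The mu heavy chain Ighm stood at 12.19 ± 0.21 and the light chain segment Igkv5-43 at 12.22 ± 0.49, and 19 of 20 measured were above background. Jchain, which joins IgA and IgM into polymers, reached 10.09 ± 0.68.

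Genes of other organs were mostly dim. Medians for stomach (3.97), liver (3.99), squamous epithelium (3.50), retina (3.36) and testis (3.55) lay below background, and those of pancreas (4.31), small intestine (4.40) and skeletal muscle (4.41) just above it. Of the small intestine list 12 of 19 genes were above background, and of the skeletal muscle list 8 of 13, shares close to the 67.4% of all genes. The small intestinal enzymes Sis and Lct and the fatty acid carrier Fabp1 were below background at 3.77, 3.29 and 3.04. Several single genes departed from their list. The glucose carrier Slc5a1 stood at 10.12 ± 0.06, the colipase Clps at 9.65 ± 0.11, the tyrosine aminotransferase Tat at 9.04 ± 0.35 and Odf1, a protein of the sperm tail, at 11.38 ± 0.07. Vmn1r233, a pheromone receptor of the nose, read 11.17 ± 0.09 in its brightest cluster and 3.65 ± 0.28 in the other, so the 2 clusters of this name did not give 1 level.

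Position along the body axis is marked by Hox genes, which are deployed from front to rear in the order of their chromosomal clusters. Hoxb13, Hoxd13 and Hoxa13, the rearmost members on chromosomes 11, 2 and 6, read 10.21 ± 0.05, 9.82 ± 0.32 and 9.17 ± 0.25. Genes of the HoxC cluster were dim: Hoxc4, Hoxc5, Hoxc9, Hoxc11, Hoxc12 and Hoxc13 lay below background and Hoxc10 at 4.28 ± 0.13. Of the anterior genes Hoxa5 was the brightest at 8.19 ± 0.17, and 7 of 13 were above background. Hoxd12 stood at 5.99, 6.22, 6.27 and 5.04, lowest in control 4, as were Hoxd13, Hoxd11 and Hoxd10.

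MicroRNA genes are small and were read by few probes, and the following were chosen after their values were seen. Mir5099 and Mir449b gave the highest signals at 12.44 ± 0.13 and 11.82 ± 0.09. Of the microRNAs known from intestinal epithelium, Mir200b read 8.03 ± 0.38, Mir192 7.53 ± 0.19, Mir200a 6.36 ± 0.24, Mir194-1 5.55 ± 0.16 and Mir215 4.63 ± 0.41, whereas Mir200c and Mir141 were below background at 3.96 and 2.81. Mir196a-1, which lies in the HoxB cluster, read 7.91 ± 0.04. Their mature sequences from RefSeq (GRCm38.p6) are shown with the seed, bases 2 to 8 that pair with target RNAs, in capitals, because members of a pair share the seed but not the level.
miR-200b-3p: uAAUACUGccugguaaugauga
miR-200c-3p: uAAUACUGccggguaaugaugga
miR-200a-3p: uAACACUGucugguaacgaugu
miR-141-3p: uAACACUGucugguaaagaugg
miR-192-5p: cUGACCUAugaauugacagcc
miR-215-5p: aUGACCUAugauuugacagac
miR-194-5p: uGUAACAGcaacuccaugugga
miR-196a-5p: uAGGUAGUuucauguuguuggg
The first 2 share a seed, as do the next 2 and miR-192-5p with miR-215-5p. Mir200b and Mir200a lie on chromosome 4, and Mir200c and Mir141 on chromosome 6. Within these pairs the mean signal of Mir200b was above that of Mir200c, Mir200a above Mir141 and Mir192 above Mir215. Mir200c and Mir141 were below background, and how often any 2 genes differ in this way was not counted. The array reads the gene's transcript and not the mature microRNA, and different probes read the members of a pair.

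How far the 4 mice differed depended on the level and on the compartment. The SD over mice had a median of 0.114 among genes above background, a spread of 8.22% in signal, and fell from a median of 0.167 in the dimmest eighth of these genes to 0.0705 in the brightest. For 86.6% of them all 4 mice lay within 0.5 units. A range above 1 was seen for 235 genes (1.57%) and a range above 2 for 31. With 4 mice an SD is itself imprecise, its 95% interval running from 0.567 to 3.73 times the estimate. Epithelial identity and reference genes had median SDs of 0.063 and 0.056, which were 0.96 and 0.91 times the median SD of genes of like level. B cells and mesothelium had median SDs of 0.671 and 0.882, which were 5.06 and 7.77 times it. Besides Slc5a8, the most even of the 1000 brightest genes included Dnm1l, which divides mitochondria, Eef2, Mdh2, an enzyme of the citric acid cycle, Ano1, the superoxide dismutase Sod1 and the tight junction protein Tjp1, each with an SD of at most 0.013.

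**Figure D3:**
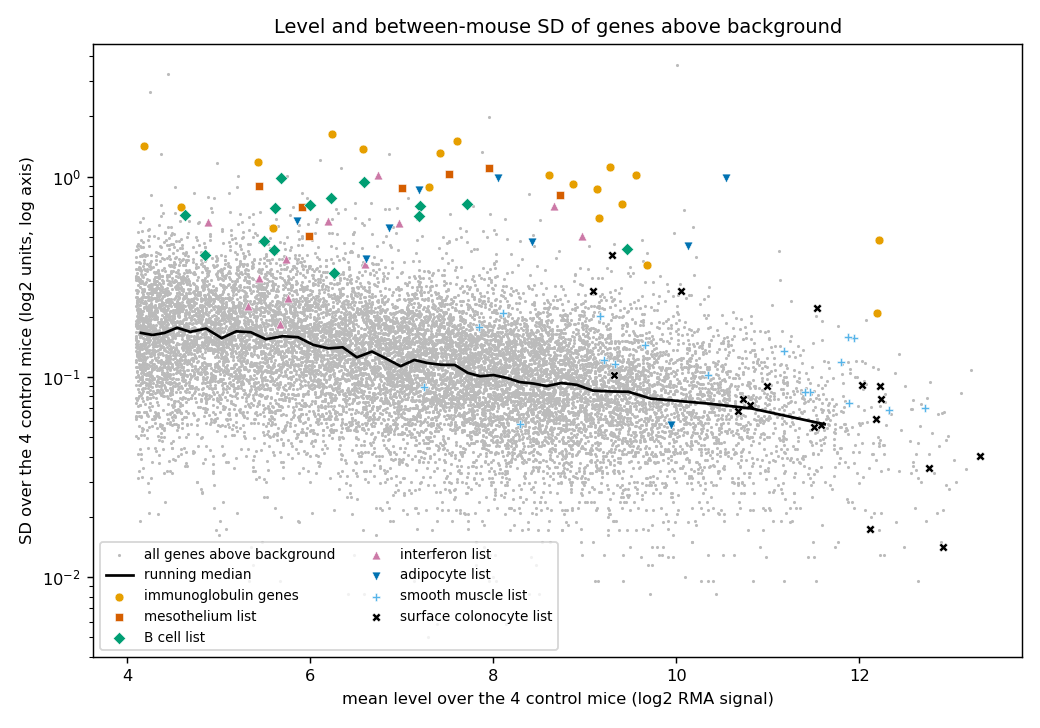
Mean level over the 4 control mice (log2 RMA signal) against the SD over the mice (log2 units, log axis) for genes above background, with a running median in black. Most smooth muscle genes lie somewhat above the running median (16 of 18), and immunoglobulin, mesothelium, B cell and many interferon and adipocyte genes lie far above it; Slc5a8, with an SD of 0, cannot be drawn on this axis.

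The most variable 1% comprised 149 genes with SDs of 0.517 or more and a median level of 6.0. Sex-linked genes came first and matched the labels: Xist, the RNA that silences 1 X chromosome in females, read 11.84, 4.61, 11.78 and 11.82, and the Y-linked genes Eif2s3y and Kdm5d 9.31 and 8.22 in control 2 against at most 3.15 in the females. Control 2 was the mouse farthest from the others for 60 of the 149, control 3 for 42, control 4 for 27 and control 1 for 20. The sex-linked genes are among the 60, and the same count was not taken over all genes. Control 2 was highest for 58 of the 149 and lowest for 46, against 25.8% and 29.9% of all genes above background. Of the 149, 44 belonged to a list, where the lists hold 591 of all 22180 genes. They included 9 of the 14 B cell genes above background and 6 of the 7 mesothelium genes. The interferon response gave 5 of 12 and adipocytes 5 of 9. These lists were chosen with earlier results of these data known.

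Immunoglobulin genes supplied 16 of the 149, and the order of the mice differed between segments. Igkv8-30 read 7.57, 9.09, 8.20 and 5.54, Ighv1-47 read 8.38, 5.41, 6.93 and 5.60, and Igkv4-59 read 5.47, 8.18, 7.73 and 8.28. A mouse that was high for 1 segment was low for another. Each clone of B cells or plasma cells rearranges and uses its own segments. The constant region Ighg3 read 4.25, 5.61, 7.84 and 7.24, but its other cluster read 4.53, 6.74, 5.51 and 5.88, so the order of the mice depended on the probes. Of the 19 immunoglobulin genes above background, 10 were highest in control 2, against 25.8% of all genes above background, and 11 lowest in control 1, against 19.8%. Plasma cell genes followed in part: Jchain read 9.36, 10.94, 10.27 and 9.77 and the receptor Tnfrsf17 4.10, 5.39, 4.93 and 4.26, both highest in control 2 and lowest in control 1.

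The mesothelium, the cell sheet on the outer face of the colon, separated control 2 from the other mice. Upk3b, an uroplakin of mesothelial cells, read 8.83, 6.34, 8.34 and 8.31, its relative Upk1b 8.19, 5.98, 8.02 and 7.88, and mesothelin, Msln, 7.81, 5.75, 7.19 and 7.28. All 7 genes of the list, which also holds Gpm6a, Wt1, Lrrn4 and Muc16, were lowest in control 2, against 29.9% of all genes above background. The mean deviation of the list was -1.22 in control 2 and 0.23 to 0.69 in the others, the widest of the lists. Genes outside the list shared the pattern. Of the 19 genes at least 1 unit lower in control 2 than in each other mouse, 8 were in lists. They were Msln, Upk3b, Upk1b, Muc16 and Gpm6a of the mesothelium, Saa3 and Slpi of the antimicrobial list, and the sex-linked Xist. Those outside the lists included Prg4, which lubricates serosal surfaces (6.51, 4.28, 6.25 and 5.96), Arg1 (7.64, 5.98, 7.08 and 7.10), the retinoic acid enzyme Aldh1a2 (6.94, 5.38, 6.56 and 6.64) and the transcription factor Bnc1 (5.93, 4.47, 5.77 and 5.64). These 4 were chosen after their values were seen. The rest of the genes outside the lists, Chil1 among them, were not assigned to a cell type. Fewer mesothelial cells in the piece and less RNA per cell cannot be told apart in bulk tissue, here or in the lists that follow. Control 2 was the only male, so sex, the animal and the dissection of the piece cannot be told apart either.

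Antimicrobial genes were uneven through a few members, and the mean deviation of the list was -0.37 in control 2. Retnlb, described with the goblet genes, had the highest SD of the list at 1.01 and was low in controls 1 and 2. Others were low in control 2 alone. The serum amyloid Saa3 read 9.98, 8.09, 10.29 and 9.83 and the protease inhibitor Slpi 8.91, 7.21, 8.47 and 8.99, while Lypd8, Pigr and Lcn2 varied with SDs of 0.05 or less. Chil1, a chitinase-like protein outside the lists, read 7.75, 5.03, 6.84 and 7.84. Reg3b and Reg3g, bactericidal lectins of the inflamed gut, were below background in the mean at 3.21 and 3.14, and Nos2, the inducible nitric oxide synthase, just above it at 4.50 ± 0.15.

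Lymphoid follicles separated control 3. All 14 B cell genes above background were lowest in this mouse, against 23.5% of all genes, and 12 were highest in control 2. Cr2, the complement receptor of B cells and follicular dendritic cells, read 5.86, 6.46, 4.24 and 6.15, the receptor Fcmr 6.50, 7.59, 5.36 and 6.92, and the signalling chain Cd79b 7.62, 8.50, 6.76 and 7.98. The mean deviation of the list was -0.85 in control 3, 0.00 in control 1, 0.23 in control 4 and 0.62 in control 2. T and natural killer genes ran in the same direction with less distance, 12 of 14 being highest in control 2, against 25.8% of all genes, and 11 lowest in control 3, and so did MHC class II, whose 6 genes were all highest in control 2 and all lowest in control 3. H2-Aa, a class II chain, read 9.04, 9.67, 8.60 and 8.88. Glycam1, a ligand that lets lymphocytes enter lymphoid organs through high endothelial venules, read 6.36, 6.82, 4.33 and 6.93, near background in control 3 alone. Macrophage genes did not share the order, with a mean deviation of 0.13 in control 1 and -0.09 in control 4 as its extremes. The number of lymphoid follicles in each piece was not recorded in the labels, and its part in these values was not tested.

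**Figure D4:**
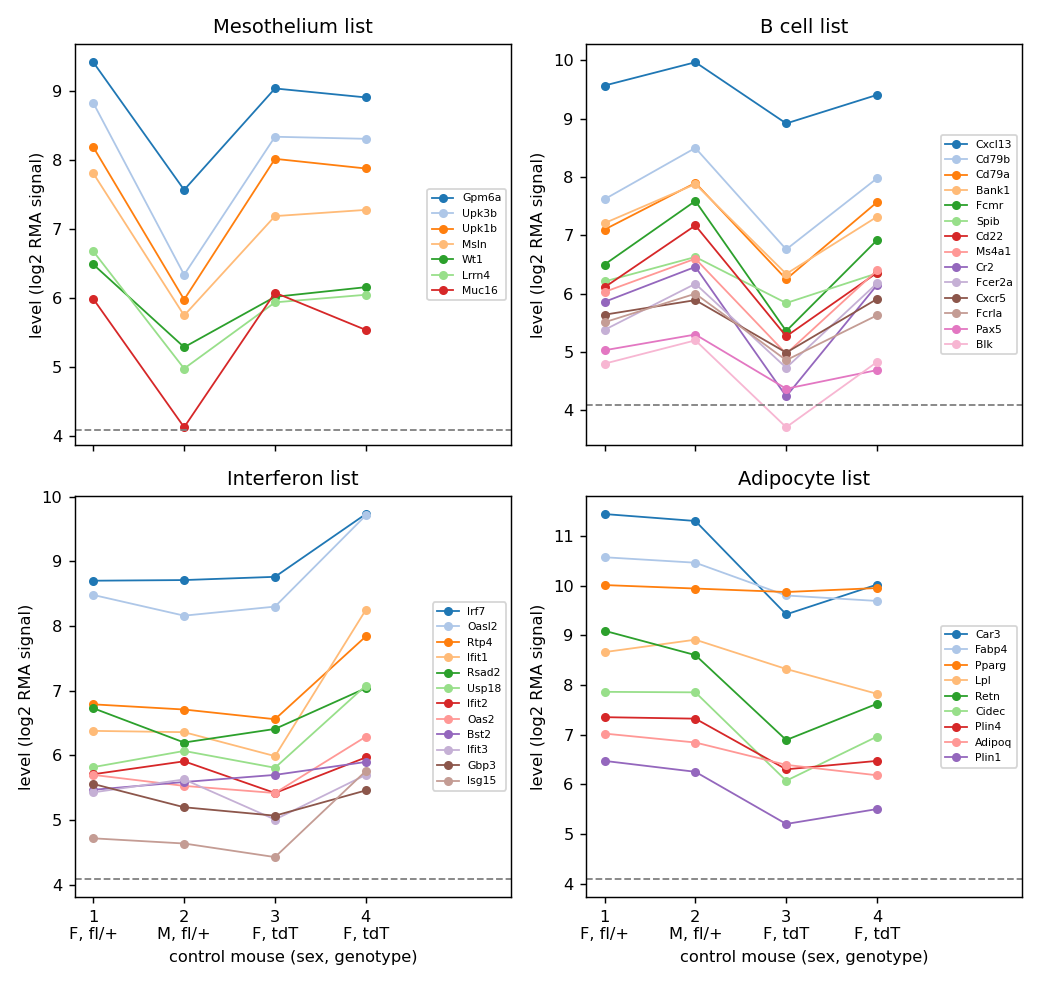
Level (log2 RMA signal) of each gene above background of the mesothelium, B cell, interferon and adipocyte lists in the 4 control mice (sex and genotype under each number: fl/+ for Ptch1fl/+, tdT for R26-tdTomato). Lines join the values of 1 gene and the dashed line is the background level; mesothelium genes dip in control 2, B cell genes in control 3, interferon genes peak in control 4, and adipocyte genes are higher in controls 1 and 2.

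The interferon response separated control 4. Type I and type III interferons act through the ISGF3 complex, which binds interferon-stimulated response elements and switches on antiviral genes. Ifit1, which binds foreign RNA, read 6.38, 6.36, 5.99 and 8.25, Oasl2, an oligoadenylate synthase-like protein, 8.48, 8.16, 8.30 and 9.71, and Irf7, the factor that amplifies the response, 8.70, 8.71, 8.76 and 9.73. Control 4 was thus above the other 3 mice for each. Isg15, a ubiquitin-like modifier, read 4.72, 4.64, 4.43 and 5.76. Of the 12 genes above background, 11 were highest in control 4, against 26.7% of all genes, and the mean deviation was 0.65 there and -0.34 to -0.12 elsewhere. There were 10 genes at least 1 unit higher in control 4 than in every other mouse. Of these, 5 are in the list, and the other 5, named after their values were seen, were Ddx60, Oas3, Apol9a, Apol9b and BC064078. Ddx60, a helicase induced by interferon, read 6.43, 6.39, 6.10 and 7.75, Oas3 4.35, 4.17, 4.43 and 5.96, and BC064078, a gene of unnamed function, 7.20, 6.78, 6.92 and 10.93, the largest distance of any autosomal gene above background.

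The letters GAAANNGAAA, the core of an interferon-stimulated response element, were searched on both strands after these values were seen. They occurred in the promoters of 6 of the 9 list genes for which one was given (66.7%) and of 6 of the 7 such genes among those 10 (85.7%), against 3.87% of all 16990 genes. The promoters of Isg15 (chr4:156200769-156201068, minus strand), Ifit1 (chr19:34640639-34640938, plus strand) and Ddx60 (chr8:61927837-61928136, plus strand) are shown from RefSeq (GRCm38.p6), 250 bases before to 50 after the start site, because all 3 genes were high in control 4, with the matches in capitals. Overlapping matches form 1 run of capitals in Isg15, and those of Ifit1 lie on the opposite strand.
Isg15: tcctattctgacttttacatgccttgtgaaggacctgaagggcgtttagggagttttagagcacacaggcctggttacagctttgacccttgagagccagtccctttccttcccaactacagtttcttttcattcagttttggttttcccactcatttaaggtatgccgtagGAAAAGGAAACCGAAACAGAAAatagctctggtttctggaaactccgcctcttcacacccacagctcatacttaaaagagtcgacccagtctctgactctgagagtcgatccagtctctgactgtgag
Ifit1: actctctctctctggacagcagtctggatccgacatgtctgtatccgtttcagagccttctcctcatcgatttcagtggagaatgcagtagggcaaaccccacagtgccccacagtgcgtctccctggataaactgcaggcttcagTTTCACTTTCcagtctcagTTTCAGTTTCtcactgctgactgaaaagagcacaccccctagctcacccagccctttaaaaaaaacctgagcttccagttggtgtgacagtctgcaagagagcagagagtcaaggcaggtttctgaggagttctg
Ddx60: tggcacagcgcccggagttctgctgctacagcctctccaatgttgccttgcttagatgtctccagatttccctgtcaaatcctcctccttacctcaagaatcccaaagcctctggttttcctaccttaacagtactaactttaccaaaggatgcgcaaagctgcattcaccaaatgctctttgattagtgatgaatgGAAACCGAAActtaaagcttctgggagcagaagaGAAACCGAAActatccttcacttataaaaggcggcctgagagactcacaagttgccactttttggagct
The promoter of Oasl2, also highest in control 4, held no match in this window, and a match in this window does not show that the element is used.

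Adipocyte genes divided the mice by genotype label. Car3, the abundant carbonic anhydrase of fat, read 11.44, 11.30, 9.42 and 10.02, the hormone Retn 9.09, 8.60, 6.89 and 7.62, and Cidec, a lipid droplet protein, 7.86, 7.85, 6.07 and 6.96. The floxed mice lay above the reporter mice for 8 of the 9 genes above background, against 16.5% of all genes, and the mean deviation was 0.54 and 0.43 in controls 1 and 2 and -0.59 and -0.38 in controls 3 and 4. The ninth, Pparg, which colonocytes also express, stood at 9.94 ± 0.06, and leptin, Lep, was below background at 3.18 ± 0.16. A second cluster of Car3 was dimmer and kept the order, with 8.02, 7.49, 6.05 and 6.58. Cyp2e1, a cytochrome P450 of liver and fat, read 8.64, 9.35, 6.65 and 6.87, and the desaturase Scd1, named after its values were seen, 10.46, 10.40, 9.48 and 9.58. Genotype, litter and the amount of mesenteric fat left on the piece cannot be told apart with 2 mice of each genotype. Some other lists divided in part by genotype label. Both floxed mice were above both reporter mice for 5 of 7 glial, 6 of 15 blood endothelial, 6 of 14 clock and 4 of 7 anterior Hox genes. In these lists the reverse held for 1 clock gene only. Other lists also passed 16.5%, among them lymphatic (3 of 6), T and natural killer (5 of 14) and smooth muscle genes (6 of 18). There the reverse held for 1 T or natural killer gene only. For epithelial identity the floxed mice were above for 2 of 19 genes and the reporter mice for 6, against 17.8% of all genes.

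Several lists of muscle and stroma were slightly lower in control 4. In that mouse, 16 of 18 smooth muscle genes, 16 of 19 fibroblast and matrix genes, 12 of 15 blood endothelial genes and 10 of 14 crypt niche genes were the lowest of the 4 mice, against 22.8% of all genes above background. The mean deviations in control 4 were -0.15 for smooth muscle, -0.18 for fibroblasts and matrix, -0.16 for endothelium, -0.17 for niche genes and -0.13 for neurons. Pericyte and lymphatic genes had deviations of -0.12 and -0.08 there, but only 3 of 7 and 2 of 6 of them were lowest in control 4. For smooth muscle the other 3 mice lay between 0.04 and 0.06, so that Actg2 read 11.92, 12.08, 12.04 and 11.73 and Des 11.98, 11.88, 11.90 and 11.80. Epithelial identity genes in control 4 were at 0.03. The share of muscle and mucosa in each piece was not tested.

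**Figure D5:**
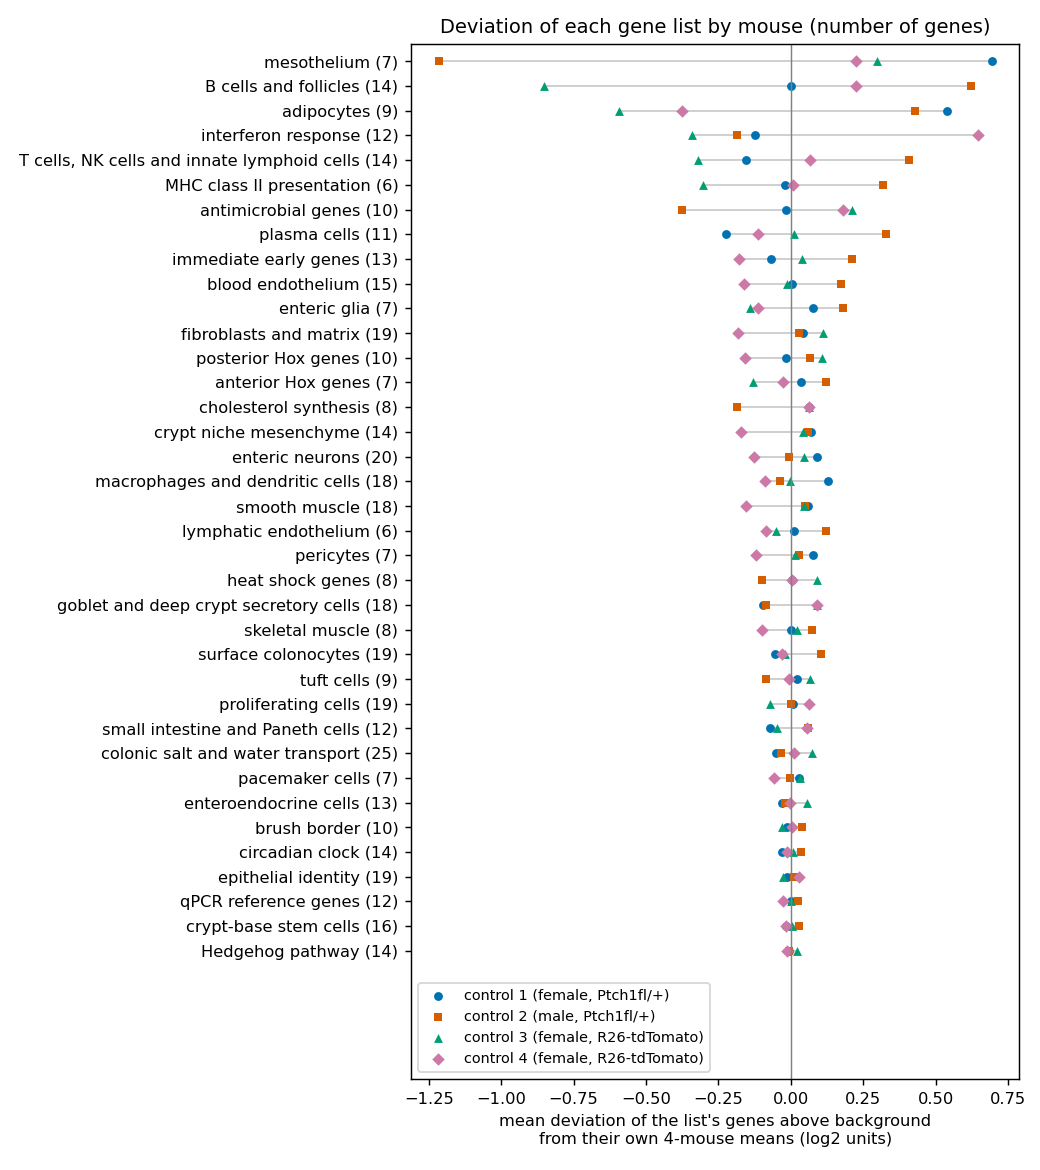
For each list with at least 5 genes above background, the mean deviation of its genes from their own 4-mouse means in each control mouse (log2 units), ordered by the range over the mice. The range falls from 1.91 for mesothelium, 1.48 for B cells, 1.13 for adipocytes and 0.99 for the interferon response to 0.054 or less for epithelial identity, reference, crypt-base and Hedgehog genes.

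Immediate early genes are induced within minutes by handling and tissue removal. Of the 13 in the list, 8 were highest in control 2, against 25.8% of all genes above background. In control 4, 6 were lowest, against 22.8%. The mean deviation was 0.21 in control 2 and -0.18 in control 4, but single genes differed. Fos read 7.55, 8.14, 7.82 and 6.62 and Egr1 6.91, 7.03, 6.86 and 5.91, lowest in control 4, whereas Nr4a1 was highest there with 7.23, 7.64, 7.47 and 8.46 and Jun stayed between 10.30 and 10.57. Clock genes differed less: Arntl read 9.05, 8.78, 8.62 and 8.77 and Nr1d1 10.47, 10.56, 10.34 and 10.41, although Ciart, a clock repressor, ran from 5.25 to 6.52. Cholesterol synthesis was lowest in control 2 for 6 of 8 genes, against 29.9% of all genes above background, with Sqle at 9.88, 9.22, 9.77 and 9.76. Genes used as references for quantitative PCR spread unequally, Tbp reading 8.36 ± 0.02 and Rplp0 10.71 ± 0.195, the latter highest in control 2.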

How the data were processed

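The deposited values were log2 signals, one column per array, that the authors made from Affymetrix Mouse Gene ST 2.0 arrays of whole colon RNA by robust multi-array averaging with median polish, and they carry 2 decimals. The array files before this step were not used here, and the 4 arrays of Ptch1-deleted mice entered no value. Of 41345 transcript clusters, 23521 had 1 gene symbol in the platform annotation, 1820 had several and 16004 none. The brightest cluster stood for each of the 22180 genes, since 1082 genes had several. Mean, SD and range were taken over the 4 mice, and no test between groups was made. Genes were also counted where both mice of 1 genotype label lay above both mice of the other. Dixon's limit for 4 values was the one statistical criterion applied, to mark single mice. For a list, the deviation in a mouse is the mean over its genes above background of the value minus that gene's mean.

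Genes named in the text were drawn from the 50 brightest genes, from each list its 8 brightest, its dimmest, its members below background and its variable members, from any member of the Hedgehog, transport, Hox, sex-linked, reference and off-tissue lists, and from the 40 most variable and the 20 most even genes. Not all of these are named. Genes outside this rule were chosen after their values were seen: those marked so in the text, and Cdx1, Lgr5, Nos2, Ighm, Igkv5-43, Vmn1r233, Mmp12 and C7. Lists and rules were chosen with earlier results of these data known, and the microRNA genes and the interferon motif were added after the values were seen. Of 645 listed genes 591 were measured. Other gene clusters, normalizations, background levels and measures of spread, and each mouse left out in turn, were tried as alternatives, and the calculations were tested on simulated data. Promoters and microRNAs are from RefSeq GRCm38.p6. Python 3.11.15, numpy 2.4.6, pandas 2.3.3, scipy 1.17.1 and matplotlib 3.10.9 were used. Each array is 1 mouse, and the number of mice limits the precision.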

Additional observations from a re-analysis of the deposited data

Results flagged for a closer look

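A mouse was taken to lie far from the other 3 where its gap to the nearest of them, as a share of the range of the 4 values, passed Dixon's limit for 4 samples, which chance passes in about 1 of 20 cases. Over all genes above background 793 of 14942 (5.31%) passed it. Of 189 genes named in the text and examined, many of them named for their spread, 16 passed. No cause was tested.

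Of 37 lists examined, 3 passed. Smooth muscle had a mean deviation of -0.15 in control 4 and crypt niche genes one of -0.17 in the same mouse, and cholesterol synthesis had -0.19 in control 2, where the others lay at about 0.06.

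Control 2 stood apart for Xist at 4.61, Eif2s3y at 9.31 and Kdm5d at 8.22, as the only male, and for Upk1b at 5.98, Cftr at 10.26 and Cdc42 at 12.25. Control 4 stood apart for the interferon-induced genes Irf7 at 9.73 and Oas3 at 5.96, for Apol9a at 7.59 and BC064078 at 10.93, for Egr1 at 5.91 and for Rgs5 at 10.32. In control 3 this held for Ihh at 8.34, Mertk at 9.26 and Pyy at 10.28, and in control 1 for Grem1 at 9.60. For Cdc42, Pyy and Ihh the whole range was at most 0.14, so that the gap reflects 3 nearly equal values.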

How the results depend on the processing

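No paired analysis was possible because the values come from no test and from 1 group of mice. The medians of the 12 lists examined stayed within the spread between mice under both other normalizations, and the count of genes above background within 1.5 times under these and both other background levels. Taking the mean of a gene's clusters kept 77 of the 100 brightest genes and moved the medians of 3 lists, to 11.18 for epithelial identity, 11.25 for surface colonocytes and 7.89 for crypt-base genes. The adipocyte range stayed between 0.918 and 1.134 whichever mouse was left out. For other lists 1 mouse set the value. With 1 mouse left out at a time, the range of the mean deviation over mice ran from 0.469 (without control 2) to 1.91 for mesothelium, from 0.228 (without control 2) to 0.586 for antimicrobial genes, from 0.035 (without control 2) to 0.159 for surface colonocytes, from 0.621 (without control 3) to 1.475 for B cells, from 0.217 (without control 4) to 0.988 for the interferon response, from 0.083 (without control 4) to 0.292 for fibroblasts and matrix and from 0.015 (without control 4) to 0.213 for smooth muscle. Of the 100 most variable genes, 59 (without control 2) to 81 were shared when a mouse was left out and 56 with the median absolute deviation in place of the SD. Depth does not apply to arrays. With 4 mice the SDs are imprecise, low signals cannot be told from absence, and levels of different genes are read by different probes.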

Other observations

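Gene symbols covered only part of the signal. Of the 100 brightest transcript clusters, 38 had no symbol and 11 had several, and 8026 clusters without a symbol lay above the background level, with a median over all unnamed clusters of 4.10 and a highest level of 13.45. These clusters were counted only.

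In the most variable 1% of genes, TATAAA occurred in 22 of the 89 promoters available (24.7%), against 9.81% of the genes above background, and the interferon motif of the report in 14 (15.7%) against 3.67%. The 149 genes were chosen for their spread and no test was made.

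By genotype label, 8 genes were at least 0.75 units higher in both floxed mice than in either reporter mouse, namely Car3, Cidec, Cyp2e1, Glb1l2, Plin1, Plin4, Retn and Scd1, and 3 showed the reverse, namely Ighg3, Retnlb and the small RNA gene Rny1. The other cluster of Ighg3, at 4.53, 6.74, 5.51 and 5.88, did not split by genotype. They were chosen after their values were seen.

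The macrophage elastase Mmp12 read 5.59, 5.90, 7.09 and 5.30 and stood alone in control 3, and the complement component C7 read 4.84, 6.06, 4.69 and 4.22 and stood alone in control 2.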
